A study of Danio rerio with 27 samples.

Results

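Gene expression in whole zebrafish larvae of a liver tumour background was set against that in wild-type larvae, where the pigment gene slc45a2 was the only gene targeted in both. The tumour background, PY in the labels, overexpresses the transcriptional co-activator YAP constitutively in hepatocytes of the liver and carries a further engineered change, and its larvae are labelled tumour-burdened and cachectic. The comparison holds the 5 libraries labelled PY SLC45a2-KO and the 4 labelled WT SLC45a2-KO, 9 of the 27 libraries in the series, and they were taken by those labels alone. In the other 18 libraries, PY and WT larvae had TGR5 (the bile acid receptor gene gpbar1) or CYP7a1 (the enzyme gene cyp7a1) targeted together with slc45a2. Every larva, WT included, had thus received Cas9 complexes with guides in the yolk as an embryo, so the knockouts are those of injected animals, which are usually mosaic, and not of lines. Larvae were collected at 21 days post fertilisation and pooled whole, and QuantSeq libraries, which read the 3′ ends of polyadenylated transcripts, were made from total RNA, 1 per pool. The labels give neither the number of larvae per pool nor a clutch or tank, so the p-values measure the spread between pools. In the test of all genes, this spread was estimated per gene over the pools of all 27 libraries.

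YAP is held back in the cytoplasm by the Hippo kinases, and when it is active in the nucleus it drives growth of the liver and can turn hepatocytes into tumour cells. The liver also makes most plasma proteins, among them complement, clotting factors and the acute phase proteins, whose transcripts inflammatory cytokines raise or lower. Cachexia is the wasting of muscle and fat that accompanies many tumours, often with systemic inflammation and poor feeding. In RNA of whole larvae, fewer cells of a type and less RNA per cell cannot be told apart, and a transcript may come from the tumour, from the liver around it or from another organ.

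The libraries held 3814346 to 4725438 counts in PY and 4707997 to 5260083 counts in WT. All levels below are CPM, the counts of an entry scaled to a common library size, adjusted with the TMM factors of edgeR, and a ± behind a mean level is the SD over the 5 PY or the 4 WT libraries. For counting error alone, a count of 0 allows up to 3 counts. Scaled by total counts without the TMM factors, these equal 0.635 to 0.787 CPM in a PY library and 0.570 to 0.637 CPM in a WT library. The most abundant entry, named for the mitochondrial genome, took 29.6 to 35.7% of the counts in PY and 24.8 to 29.2% in WT. Pairs of PY libraries differed more than pairs of WT libraries, with a biological coefficient of variation of 0.264 in PY and 0.211 in WT. The targeted gene slc45a2 was too low to check the labels, with 11 counts over the 5 PY libraries and 1 over the 4 WT libraries (exact permutation test, two-sided, p = 0.238). A 3′ tag would also not show a small deletion elsewhere in the transcript. The yap1 entry had 61 counts in PY and 3 in WT, with 2.31, 2.05, 1.74, 8.01 and 1.06 CPM in PY against 0, 0, 0.625 and 0 CPM in WT. Every PY library stood above every WT library, and the exact two-sided permutation p of 0.0159 is the smallest that 5 against 4 libraries allow. Whether this entry can count reads of the overexpressed YAP is not given in the sources used here.

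Of 39988 entries in the table, 15521 were abundant enough to test, and 5531 of these (35.6%) differed between PY and WT at an adjusted p below 0.05 in edgeR's quasi-likelihood test. The calls were nearly balanced, with 2781 genes higher in PY (17.9%) and 2750 lower (17.7%), and the median log2 change over all tested genes was -0.02. Large changes were more often upward: 577 genes were higher and 384 lower by more than 2 on the log2 scale. For 4716 tested genes (30.4%) the 5 PY values and the 4 WT values did not overlap at all, 2330 with PY above WT and 2386 with PY below WT. The plot of log2 change against abundance shows calls at all levels of expression. Changes are given below as log2 of PY over WT with their standard errors, and a gene named as higher or lower passed the test. Gene groups are given as counts of tested members, to be read against these shares.

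**Figure D1:**
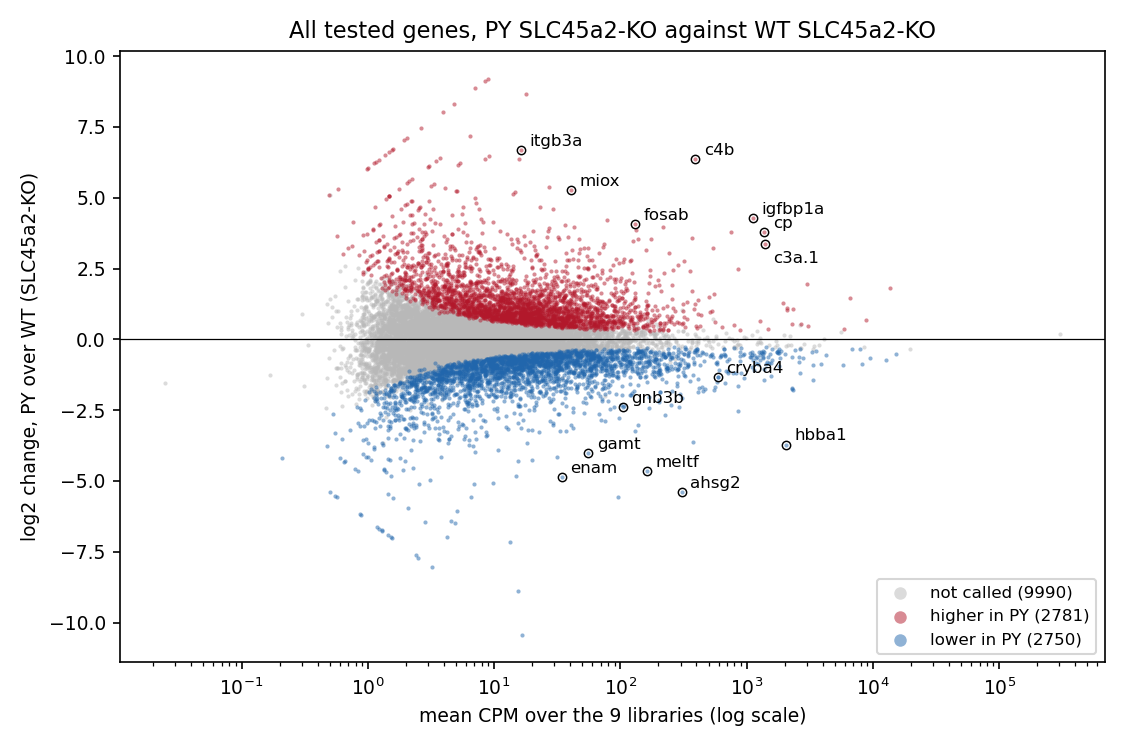
Log2 change (PY SLC45a2-KO over WT SLC45a2-KO) of the 15521 tested genes against their mean CPM over the 9 libraries on a log axis. Coloured points are the 2781 genes higher and the 2750 genes lower in PY at an adjusted p below 0.05, and labelled points are genes described in the text.

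Of the plasma proteins of the liver, complement, clotting and acute phase genes were mostly higher in PY. Of 24 tested complement genes, 17 were higher in PY and 3 lower, with a median log2 change of 1.97, where 17.9% of all tested genes were higher and 17.7% lower. c4b, a complement component that labels targets for destruction, had 625, 704, 786, 808 and 585 CPM in the 5 PY libraries, against 10.96, 5.78, 13.1 and 4.346 CPM in the 4 WT libraries. The lowest PY library was above the highest WT library, and the log2 change was 6.36 ± 0.38 (edgeR adjusted p = 5.79e-12). c3a.1, a copy of the central component C3, had 1537, 2938, 2720.3, 2483 and 2036 CPM in the 5 PY libraries, against 194, 257, 238 and 223 CPM in the 4 WT libraries, a log2 change of 3.36 ± 0.20. PY library 1 was the lowest of PY and still above every WT library. In the alternative pathway, the protease gene cfb had 79.6 ± 15.4 CPM in PY and 6.82 ± 1.92 CPM in WT and the inhibitor gene cfi had 296 ± 66.1 CPM in PY and 25.3 ± 2.60 CPM in WT (SD, n = 5 and 4), with log2 changes of 3.54 ± 0.35 and 3.55 ± 0.19. The c3a copies lie in a family of near-identical genes, and how the counting treated shared reads is not given in the sources used here.

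Clotting factors moved in the same direction. Of 19 tested members, 12 were higher in PY and 0 lower. f5, the cofactor of prothrombin activation, had 595, 665, 615, 693 and 554 CPM in the 5 PY libraries, against 35.6, 58.0, 60.8 and 52.7 CPM in the 4 WT libraries, with no overlap and a log2 change of 3.59 ± 0.19 (edgeR adjusted p = 1.54e-18). The 3 fibrinogen chains, the substrate of the clot, rose by less: fga, fgb and fgg averaged 284 against 131 CPM, 401 against 199 CPM and 83.4 against 31.8 CPM in PY and WT, log2 changes of 1.12 ± 0.16, 1.01 ± 0.15 and 1.39 ± 0.18.

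Of 28 tested acute phase genes, 20 were higher and 2 lower, with a median log2 change of 1.17, and several of them handle iron, copper or haem. hamp encodes hepcidin, the hormone that closes the iron exporter and that inflammation is known to raise. It had 22.9, 46.8, 38.3, 24.6 and 29.5 CPM in the 5 PY libraries, against 0.224, 0, 0 and 0 CPM in the 4 WT libraries, from 709 counts in PY and 1 in WT. The ratio of PY to WT over the summed counts, scaled for library size, was 633, with an exact 95% binomial interval of 113 to 25000 that covers counting error only. cp, which encodes the copper-carrying ferroxidase ceruloplasmin, had 1869, 2570.3, 2834, 2615 and 1873 CPM in the 5 PY libraries, against 154.6, 181, 183 and 166.3 CPM in the 4 WT libraries. The groups did not overlap, and the log2 change was 3.78 ± 0.17. tfr1b, a transferrin receptor, averaged 77.9 ± 9.70 CPM in PY and 9.53 ± 4.09 CPM in WT, a log2 change of 3.04 ± 0.38, while tfa, the abundant plasma iron carrier transferrin, had 4092 ± 703 CPM in PY and 4036 ± 571 CPM in WT, a log2 change of 0.02 ± 0.14 with overlapping groups (edgeR adjusted p = 0.929).

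Not all liver transcripts rose. Of 35 tested hepatocyte markers, 16 were higher and 5 lower in PY, with a median log2 change of 0.54. Their summed level was 20642 to 28426 CPM in PY and 15428 to 19938 CPM in WT, without overlap. Single changes ran in both directions by large factors, and the genes named next do not show the balance of the list. ttr, the thyroid hormone carrier transthyretin, had 135, 175, 195, 125 and 116 CPM in the 5 PY libraries, against 16.8, 21.0, 31.7 and 14.9 CPM in the 4 WT libraries, a log2 change of 2.82 ± 0.23. ahsg2, a fetuin of the plasma, had 13.2, 10.5, 9.70, 22.9 and 24.4 CPM in the 5 PY libraries, against 571, 811, 724 and 578 CPM in the 4 WT libraries. It went the other way in every library, with a log2 change of -5.38 ± 0.36 (edgeR adjusted p = 6.78e-11). hpxa, a haem carrier of the hemopexin family, had 0.462, 2.26, 0.746, 11.3 and 4.45 CPM in PY against 36.9, 63.5, 71.0 and 91.3 CPM in WT. All PY libraries were below all WT libraries, and the log2 change of -4.14 ± 0.82 was -5.004 without PY library 4, the highest of the PY libraries. rbp4, the plasma carrier of vitamin A, averaged 142.6 ± 22.6 CPM in PY and 449 ± 43.2 CPM in WT, a log2 change of -1.65 ± 0.23. In mammals transthyretin, the fetuin AHSG and the vitamin A carrier are known as plasma proteins that fall in the acute phase. Among the liver's lipoprotein genes, where 9 of 31 were higher and 9 lower, apoba, which builds very low density lipoproteins, averaged 407 ± 46.7 CPM in PY and 74.8 ± 15.2 CPM in WT (2.44 ± 0.17 in log2). apoa1b, the main protein of high density lipoproteins, averaged 4181 ± 762 CPM in PY and 7904 ± 1214 CPM in WT (-0.92 ± 0.17).

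**Figure D2:**
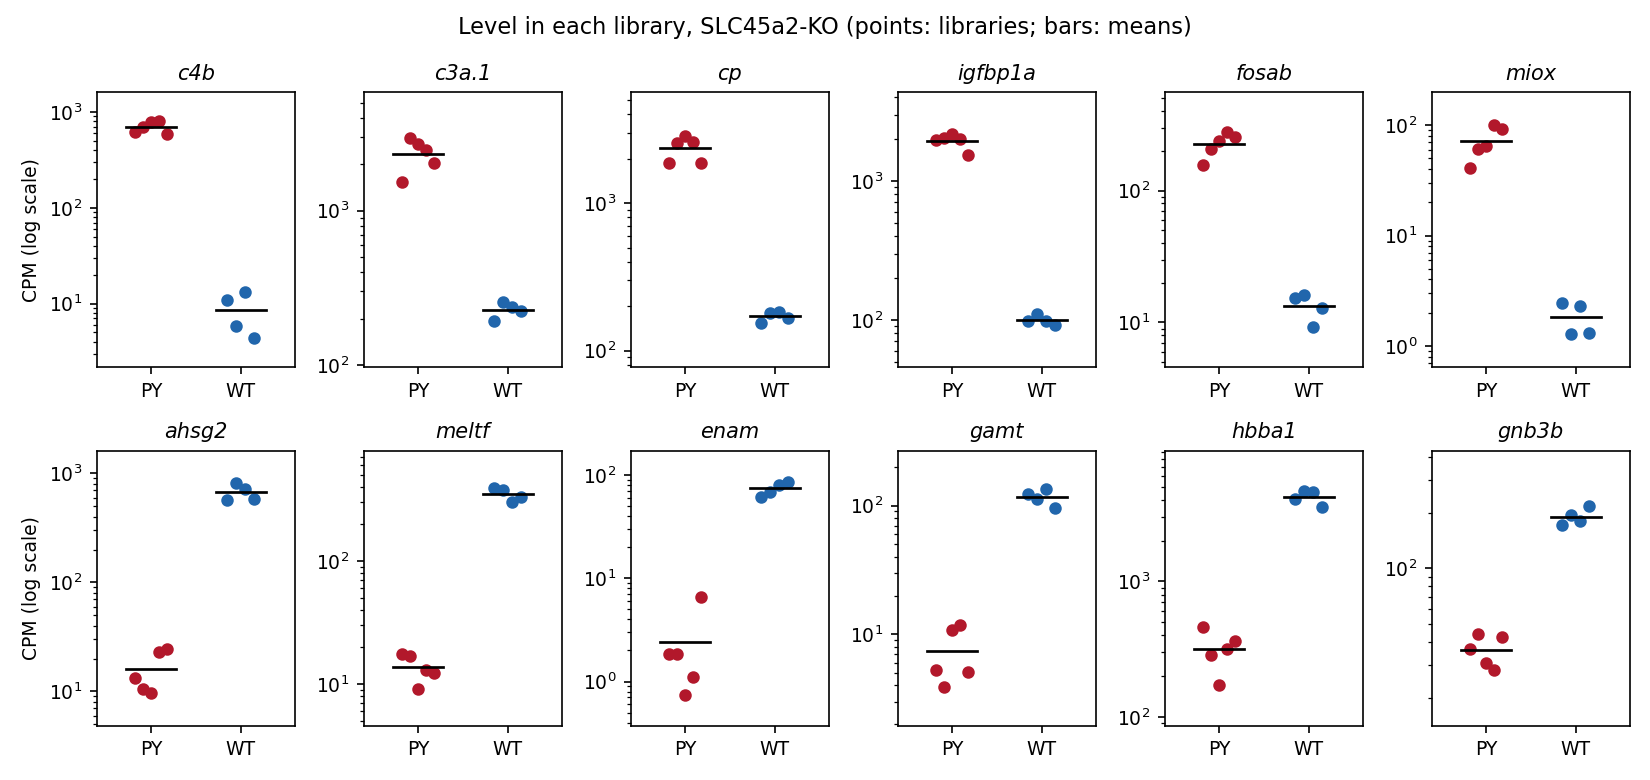
CPM of 12 genes in each library on log axes, with the 5 PY SLC45a2-KO libraries left and the 4 WT SLC45a2-KO libraries right in each panel. Points are libraries and bars are group means; in the upper 6 genes every PY library lies above every WT library, and in the lower 6 every PY library lies below.

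Over the 25 tested members of the insulin-like growth factor (IGF) axis, 12 were higher in PY and 5 lower. igfbp1a encodes a binding protein that sequesters IGF and that is known to rise in fasting and inflammation. It had 1968, 2044, 2183, 1988 and 1549 CPM in the 5 PY libraries, against 98.2, 110.0, 97.9 and 91.3 CPM in the 4 WT libraries. The groups were separated in every library, with a log2 change of 4.29 ± 0.16 (edgeR adjusted p = 6.84e-27). igfbp2b, which encodes another binding protein of the liver, averaged 7.47 ± 2.19 CPM in PY and 16.8 ± 3.15 CPM in WT, a log2 change of -1.17 ± 0.26 in the other direction. The hormone gene igf1 averaged 3.73 ± 1.54 CPM in PY and 8.64 ± 5.49 CPM in WT, a log2 change of -1.21 ± 0.36 (edgeR adjusted p = 0.00704), but without WT library 1 the change was -0.68 and no longer passed the test (adjusted p = 0.173).

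Cytokines and targets of the inflammatory factor NF-kB were higher too, 15 of 24 tested members against 2 lower, with a median log2 change of 1.47. Their summed level was 651, 1434, 668, 555 and 499 CPM in the 5 PY libraries, against 269, 282, 271 and 282 CPM in the 4 WT libraries. PY library 2 stood high above the other PY libraries, all of which still lay above WT. tnfaip3, a feedback inhibitor of NF-kB, had 62.2, 115, 74.9, 78.5 and 44.7 CPM in the 5 PY libraries, against 10.3, 15.6, 9.17 and 7.94 CPM in the 4 WT libraries, a log2 change of 2.80 ± 0.24. ptgs2b, a cyclooxygenase that makes prostaglandins, had 17.1, 37.1, 18.9, 28.7 and 31.6 CPM in the 5 PY libraries, against 2.46, 3.21, 3.33 and 3.40 CPM in the 4 WT libraries, a log2 change of 3.09 ± 0.34. Both held in each PY library. The neutrophil attractant cxcl8a had 6.24, 35.5, 8.96, 4.42 and 2.54 CPM in PY against 0.224, 0, 0 and 0 CPM in WT, and PY library 2 held 65.3% of its counts. The ratio over the summed counts was 236, with an exact 95% binomial interval of 41.9 to 9340. In the settings with TGR5-KO and CYP7a1-KO it had 2 and 10 counts in PY and 11 and 19 in WT. mmp13a, a collagen-cutting protease, had 9.94, 89.6, 15.9, 6.35 and 5.94 CPM in PY against 2.01, 1.07, 2.71 and 2.83 CPM in WT. Its log2 change of 3.55 ± 0.70 became 2.12 without PY library 2 and still passed the test. In the same manner lepb, a leptin gene whose mammalian counterpart signals body fat and restrains feeding, had 15.9, 29.7, 9.46, 3.59 and 4.03 CPM in PY against 0.224, 1.07, 0.417 and 0 CPM in WT, with a log2 change of 4.82 ± 1.25 (4.21 without PY library 2, 5.75 without WT library 2). LOC101886665, annotated as growth/differentiation factor 15, a stress hormone known from mammals to suppress appetite, had 118 counts in PY and 2 in WT, a ratio of 52.6 (exact 95% binomial interval 14.3 to 440). With TGR5-KO it had 16 counts in PY and 23 in WT, and with CYP7a1-KO 26 in PY and 12 in WT.

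Of the markers of cells that such cytokines draw in, 8 of 13 tested neutrophil genes were higher and 1 lower, and 6 of 20 macrophage genes were higher and 1 lower. The summed neutrophil list went the other way, with 1033, 1294, 1217, 918 and 904 CPM in the 5 PY libraries, against 1132, 1404, 1436 and 1389 CPM in the 4 WT libraries, and the groups overlapped. Most of that sum was cpa5, a carboxypeptidase that is also a marker of the exocrine pancreas, which averaged 670.5 ± 107 CPM in PY and 1140.1 ± 140.8 CPM in WT (-0.77 ± 0.12). The macrophage list summed to 286 to 374 CPM in PY and 228 to 260.1 CPM in WT, without overlap. Among the higher neutrophil genes is myh9a, a myosin of many cell types, while mpx, the myeloperoxidase that defines these cells, averaged 12.8 ± 6.44 CPM in PY and 8.20 ± 1.603 CPM in WT and did not pass the test (edgeR adjusted p = 0.147), but passed it without PY library 1 (0.84, adjusted p = 0.036) and against all 3 WT groups together (0.74, adjusted p = 0.0182). cybb, the catalytic subunit of the phagocyte oxidase, had 7.62, 9.02, 9.70, 10.5 and 5.94 CPM in PY against 1.57, 0, 1.88 and 1.32 CPM in WT, a log2 change of 2.81 ± 0.52. marco, a scavenger receptor of macrophages, had 14.3, 22.8, 14.4, 16.3 and 23.7 CPM in PY against 3.80, 4.28, 6.46 and 7.37 CPM in WT, a log2 change of 1.73 ± 0.30. No PY library overlapped WT for either gene. Of the 8 lymphocyte markers abundant enough to test, 1 was higher and 1 lower (none higher without WT library 1 or 3, and 2 higher without PY library 1 or WT library 2). The part of these cells in the higher cytokine transcripts was not tested.

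The immediate early genes, which cells switch on within minutes of growth factor or stress signals, were higher for 23 of 32 tested members and lower for 2. fosab, a subunit of the transcription factor AP-1, had 155.04, 205, 238, 279 and 253 CPM in the 5 PY libraries, against 15.4, 16.0, 9.17 and 12.8 CPM in the 4 WT libraries. The groups were separated in all libraries, with a log2 change of 4.08 ± 0.41. fosl1a, another subunit and a known YAP target, averaged 74.2 ± 35.4 CPM in PY and 4.83 ± 2.45 CPM in WT, a log2 change of 3.95 ± 0.38. sgk1, a kinase induced by glucocorticoid and salt stress, averaged 111 ± 9.71 CPM in PY and 13.3 ± 6.12 CPM in WT, a log2 change of 3.06 ± 0.26. Of 26 tested YAP target genes, 11 were higher and 3 lower, with a median log2 change of 0.34. With TGR5-KO 7 were higher and 1 lower (median 0.30), where 11.5% of all tested genes were higher and 8.42% lower. With CYP7a1-KO 5 were higher and 4 lower (median 0.02), where the shares were 13.3% and 9.93%. Against the mean of the 3 WT groups 11 were higher and 5 lower (median 0.11), where they were 22.2% and 20.4%. nuak2, a kinase that feeds back on YAP, averaged 27.7 ± 7.95 CPM in PY and 8.68 ± 3.26 CPM in WT (1.67 ± 0.35 in log2). ctgfa, a matricellular protein and one of the best known YAP targets, went the other way, with 0, 0, 0, 0.276 and 0 CPM in PY against 11.2, 4.49, 1.04 and 1.89 CPM in WT, from 1 count in PY and 86 in WT (edgeR adjusted p = 9.09e-05). It had 0 counts in PY and 28 in WT with TGR5-KO and 15 in PY and 115 in WT with CYP7a1-KO.

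Stress responses were mixed. In the integrated stress response and unfolded protein response, 7 of 32 tested genes were higher and 4 lower, near the shares over all genes. ppp1r15a, the phosphatase subunit that ends the translational block, averaged 96.3 ± 18.4 CPM in PY and 13.8 ± 1.84 CPM in WT, a log2 change of 2.80 ± 0.20, and trib3, a pseudokinase downstream of the same pathway, 38.8 ± 6.41 CPM in PY and 10.3 ± 1.104 CPM in WT, a log2 change of 1.91 ± 0.24. phgdh, the first enzyme of serine synthesis and a usual target of that pathway, went the other way with 4.91 ± 1.44 CPM in PY and 19.6 ± 1.12 CPM in WT (-1.99 ± 0.29). hspa5, the main chaperone of the endoplasmic reticulum, had 764, 381, 212, 224 and 397 CPM in PY against 200.4, 192, 223 and 158.9 CPM in WT. The groups overlapped, and the gene did not pass the test (1.03 ± 0.49, edgeR adjusted p = 0.109, and 0.0267 without robust estimation). The heat shock list split evenly, 8 higher and 8 lower of 26, and 2 copies of one chaperone went opposite ways. hsp90aa1.2 had 144.2, 220.4, 106, 74.6 and 73.1 CPM in PY against 46.7, 38.3, 40.6 and 40.1 CPM in WT, a log2 change of 1.58 ± 0.39. hsp90aa1.1, the copy used by skeletal muscle in zebrafish, had 89.0, 106, 56.7, 53.05 and 52.6 CPM in PY against 289, 185, 233 and 177 CPM in WT, a log2 change of -1.63 ± 0.46. PY and WT overlapped for neither copy.

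Several metabolic and oxygen-regulated enzymes were higher. Of 19 tested hypoxia-response genes, 8 were higher and 1 lower, with a median log2 change of 0.86. egln3, a prolyl hydroxylase that marks hypoxia-inducible factor for destruction and is itself induced by it, had 111, 65.6, 94.8, 75.4 and 78.0 CPM in the 5 PY libraries, against 12.5, 9.63, 9.38 and 4.72 CPM in the 4 WT libraries, a log2 change of 3.23 ± 0.39. vegfab, a growth factor for vessels, averaged 29.1 ± 6.75 CPM in PY and 8.84 ± 0.653 CPM in WT (1.71 ± 0.21). In amino acid breakdown, where 9 of 36 genes were higher and 10 lower, tat, a tyrosine aminotransferase of the fasting liver, had 33.0, 42.7, 45.3, 52.8 and 26.1 CPM in the 5 PY libraries, against 5.37, 4.71, 6.67 and 8.31 CPM in the 4 WT libraries, a log2 change of 2.66 ± 0.23. prodha, the first enzyme of proline breakdown, averaged 299 ± 32.4 CPM in PY and 69.6 ± 5.78 CPM in WT (2.102 ± 0.18). In the other direction gpt2, an alanine aminotransferase, averaged 6.37 ± 3.31 CPM in PY and 20.7 ± 3.19 CPM in WT (-1.68 ± 0.26). cyp1a, the main target of the aryl hydrocarbon receptor, averaged 140.8 ± 25.4 CPM in PY and 22.6 ± 3.66 CPM in WT (2.64 ± 0.43). Of 32 clock genes 9 were higher and 3 lower, where nr1d1, a repressor of the clock, averaged 17.8 ± 3.06 CPM in PY and 4.47 ± 0.922 CPM in WT (1.99 ± 0.39). No label gives the hour of collection.

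Among the single genes with the largest increases that stood on none of the lists, miox, which breaks down inositol, had 40.9, 61.3, 64.2, 99.7 and 91.4 CPM in the 5 PY libraries, against 2.46, 1.28, 2.29 and 1.32 CPM in the 4 WT libraries, a log2 change of 5.27 ± 0.33. itgb3a, the integrin subunit of platelets and thrombocytes, had 31.0, 28.9, 28.6, 30.9 and 27.1 CPM in the 5 PY libraries, against 0.224, 0.428, 0.417 and 0 CPM in the 4 WT libraries, a log2 change of 6.67 ± 0.45, with the 5 PY libraries within a narrow range. lsp1, an actin-binding protein named for lymphocytes, averaged 376 ± 47.7 CPM in PY and 24.3 ± 5.89 CPM in WT (3.95 ± 0.19), and angptl6, a secreted angiopoietin-like factor of the liver in mammals, averaged 27.9 ± 6.43 CPM in PY and 0.328 ± 0.379 CPM in WT (6.36 ± 0.49). cxcl20, a chemokine, averaged 40.5 ± 9.496 CPM in PY and 1.58 ± 0.492 CPM in WT (4.67 ± 0.37), and cbln10, a secreted protein of the cerebellin family, averaged 62.9 ± 10.02 CPM in PY and 3.87 ± 1.78 CPM in WT (4.02 ± 0.27). pabpc4, an inducible protein that binds the poly(A) tail, had 330 counts in PY and none in WT, at least 98.1-fold higher with 3 counts allowed over the WT group and at least 22.8-fold higher with 3 counts per WT library. In the other settings pabpc4 had 444 and 1085 counts in PY and 1 and 0 in WT with TGR5-KO and CYP7a1-KO.

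Genes of the eye were lower. Of 40 tested photoreceptor genes, 33 were lower in PY and 1 was higher, with a median log2 change of -1.50, and of 45 lens genes 40 were lower and 0 higher, with a median of -1.33. gnb3b, a transducin subunit of cones, had 36.5, 44.1, 30.9, 28.2 and 42.4 CPM in the 5 PY libraries, against 172, 194, 179.8 and 217 CPM in the 4 WT libraries, a log2 change of -2.38 ± 0.17 (edgeR adjusted p = 2.08e-16). opn1lw2, a long-wave cone opsin, averaged 4.47 ± 2.03 CPM in PY and 32.7 ± 12.5 CPM in WT (-2.86 ± 0.34). cryba4, a crystallin that makes up the lens, had 279.6, 318, 365, 377 and 423 CPM in the 5 PY libraries, against 914, 752, 865 and 1021 CPM in the 4 WT libraries, a log2 change of -1.33 ± 0.14. The photoreceptor list summed to 862 to 1022 CPM in PY and 2431 to 3029.5 CPM in WT, and the lens list to 2627 to 3289 CPM in PY and 7004 to 8405 CPM in WT, without overlap.

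Genes of skeletal tissue were lower as well. Of 21 tested bone and tooth genes 14 were lower and 3 higher, with a median log2 change of -1.47, and of 25 cartilage genes 17 were lower and 2 higher, with a median of -1.27. enam, an enamel-type matrix protein of teeth, had 1.85, 1.85, 0.746, 1.11 and 6.57 CPM in the 5 PY libraries, against 61.5, 68.7, 80.8 and 86.7 CPM in the 4 WT libraries. The log2 change was -4.87 ± 0.50, and -5.69 without PY library 5, the highest of the PY libraries. col10a1b, a collagen of bone-forming cells, had 10.4, 4.72, 2.24, 2.21 and 3.60 CPM in the 5 PY libraries, against 45.9, 34.7, 45.4 and 55.0 CPM in the 4 WT libraries, a log2 change of -3.26 ± 0.33. For both genes every PY library was below every WT library. scpp8, a member of the same secreted phosphoprotein family as enamel genes, was the opposite case with 3.70, 34.5, 16.2, 9.67 and 2.76 CPM in PY against 0.895, 0.856, 0 and 0.378 CPM in WT and a log2 change of 4.61 ± 0.89 (3.87 without PY library 2). col9a2 of cartilage averaged 36.7 ± 5.46 CPM in PY and 181 ± 30.5 CPM in WT (-2.30 ± 0.32). In contrast sox9b, a cartilage and bile duct regulator, averaged 66.4 ± 8.59 CPM in PY and 19.8 ± 5.74 CPM in WT (1.74 ± 0.18).

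Fibrillar matrix genes were lower for 26 of 40 tested members and higher for 4, with a median log2 change of -0.64. col1a1b, a chain of the main collagen of skin and bone, had 1113, 607, 867, 1049 and 1067 CPM in the 5 PY libraries, against 2387, 2156, 2368 and 2315 CPM in the 4 WT libraries. PY library 2 was the lowest and all PY libraries were below WT, with a log2 change of -1.29 ± 0.14. acta2, the actin of smooth muscle, averaged 36.5 ± 11.5 CPM in PY and 119.7 ± 17.7 CPM in WT (-1.71 ± 0.16).

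**Figure D3:**
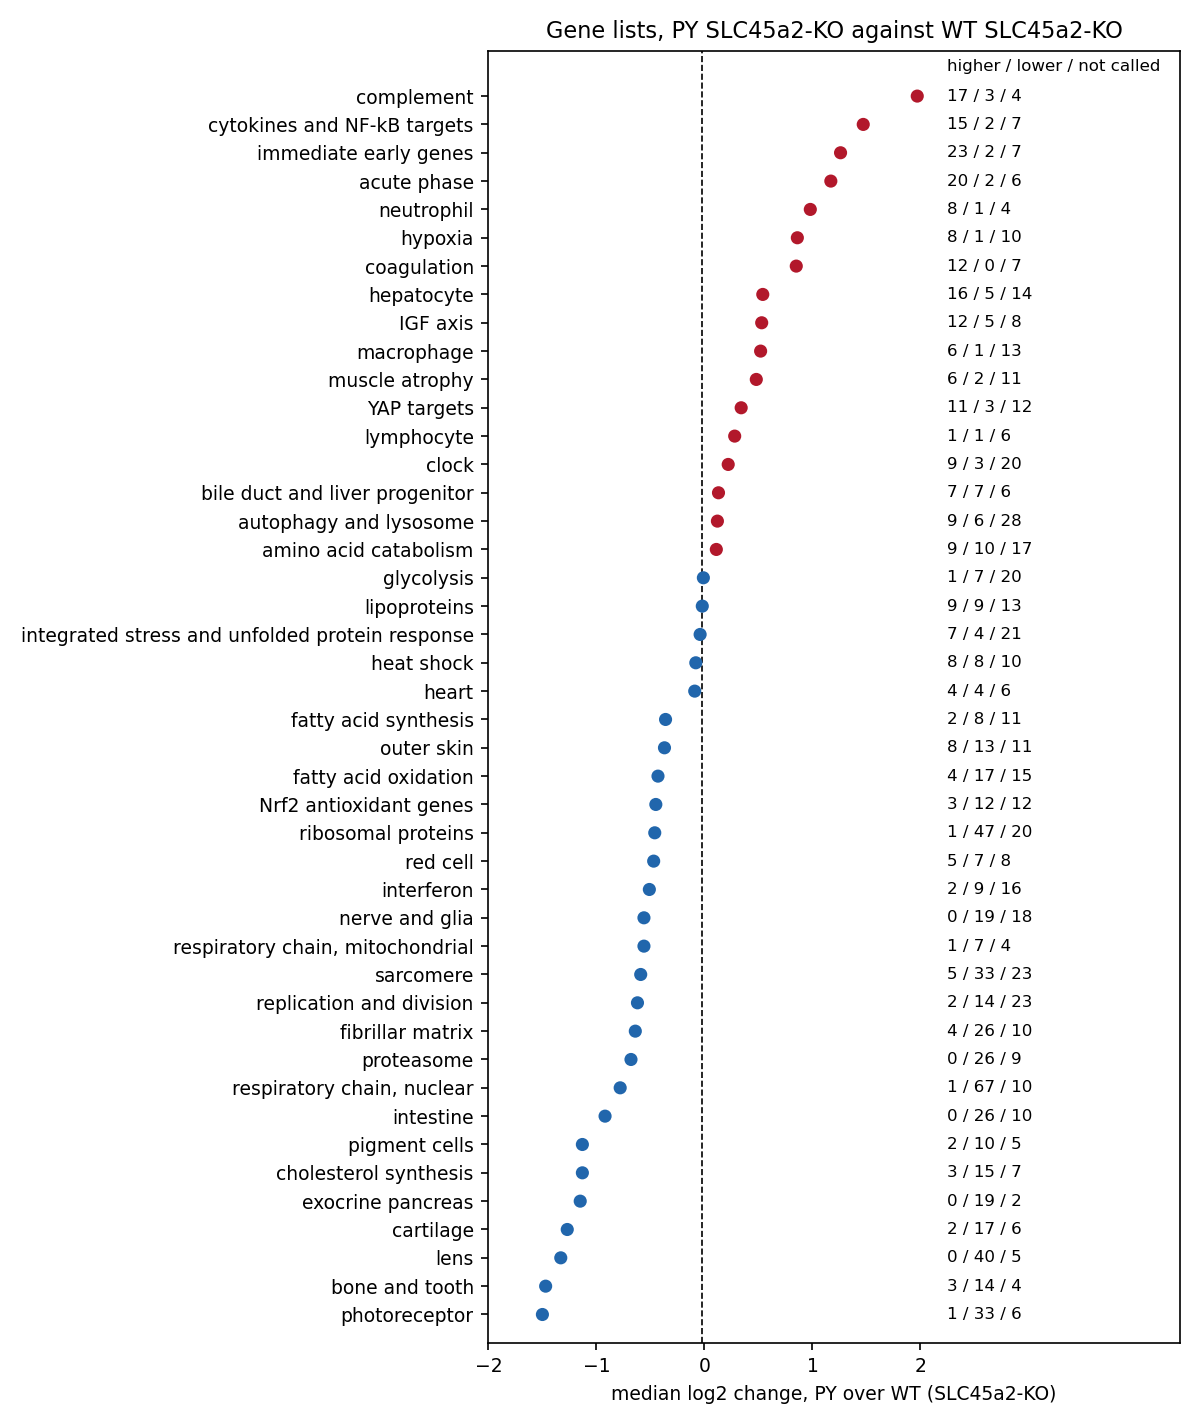
Median log2 change (PY SLC45a2-KO over WT SLC45a2-KO) of the tested members of the gene lists described in the text, a part of the 55 lists made. The numbers of tested members higher, lower and not called stand beside each point (red above 0, blue at or below 0). The dashed line is the median over all 15521 tested genes, -0.02; complement has the highest median, 1.97, and photoreceptor the lowest, -1.50.

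On the lists of the digestive organs no gene was higher. Of 21 tested genes of the exocrine pancreas 19 were lower in PY and 0 higher, with a median log2 change of -1.15, and of 36 intestinal genes 26 were lower and 0 higher, with a median of -0.92. The summed pancreatic list was 9279, 10536, 11150, 5910.0 and 8772 CPM in the 5 PY libraries, against 18885, 21017, 22235 and 21089 CPM in the 4 WT libraries. All PY libraries were below WT, and PY library 4 was the lowest. prss59.1, a trypsin, averaged 1114 ± 388 CPM in PY and 3887 ± 302 CPM in WT (-1.80 ± 0.20), whereas ctrl, a chymotrypsin of similar abundance, averaged 2086 ± 533 CPM in PY and 3206 ± 249 CPM in WT (-0.62 ± 0.15). fabp1b.1, a fatty acid carrier of the absorbing enterocyte, had 426, 397, 387, 393 and 599 CPM in the 5 PY libraries, against 1363, 1465, 1425 and 1280.5 CPM in the 4 WT libraries, a log2 change of -1.65 ± 0.15. anpepb, a peptidase of the brush border, averaged 71.2 ± 20.7 CPM in PY and 291 ± 37.0 CPM in WT (-2.03 ± 0.20), and vil1, a brush border actin bundler, 29.0 ± 6.203 CPM in PY and 124 ± 6.85 CPM in WT (-2.10 ± 0.18).

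In cholesterol synthesis 15 of 25 tested genes were lower and 3 higher, with a median log2 change of -1.13. cyp51, a sterol demethylase, had 19.2, 52.5, 42.8, 38.1 and 35.2 CPM in the 5 PY libraries, against 146.1, 140.6, 166.1 and 97.1 CPM in the 4 WT libraries, a log2 change of -1.87 ± 0.36. hmgcs1, the enzyme before the rate-limiting step, averaged 15.7 ± 7.76 CPM in PY and 56.7 ± 18.7 CPM in WT (-1.83 ± 0.53). srebf2, the transcription factor that governs this pathway, averaged 57.8 ± 11.9 CPM in PY and 54.0 ± 1.75 CPM in WT and did not pass the test (0.10 ± 0.17, edgeR adjusted p = 0.679). In fatty acid and triglyceride synthesis 8 of 21 were lower and 2 higher, and the 2 acyltransferases that close triglyceride synthesis differed: dgat1a averaged 3.13 ± 1.62 CPM in PY and 12.5 ± 4.33 CPM in WT (-1.98 ± 0.32) and dgat2 averaged 129.7 ± 21.8 CPM in PY and 59.7 ± 10.8 CPM in WT (1.12 ± 0.24). Fatty acid oxidation was lower for 17 of 36 genes and higher for 4. adipoqb, an adiponectin gene of fat cells, had 0.693, 0.41, 0.249, 1.11 and 0.636 CPM in PY against 5.82, 8.99, 6.88 and 8.31 CPM in WT, a log2 change of -3.57 ± 0.46.

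Of 78 tested subunits and assembly factors of the respiratory chain that the nucleus encodes, 67 were lower in PY and 1 was higher, with a median log2 change of -0.78. ndufs7, a subunit of complex I, had 19.4, 8.41, 18.2, 14.9 and 37.9 CPM in the 5 PY libraries, against 146.5, 124, 175 and 134 CPM in the 4 WT libraries, a log2 change of -2.87 ± 0.39. cox6a2, a muscle subunit of cytochrome oxidase, averaged 7.23 ± 2.34 CPM in PY and 56.4 ± 17.1 CPM in WT (-2.95 ± 0.72). Of 12 tested respiratory chain genes that mitochondria encode themselves 7 were lower and 1 was higher. mt-atp6 had 2881 ± 473 CPM in PY and 5214 ± 269.9 CPM in WT (-0.86 ± 0.11) and mt-co1, the one called higher, had 6568 ± 511 CPM in PY and 5061 ± 89.7 CPM in WT (0.38 ± 0.12). Both are cut from one precursor RNA. The 12 genes summed to 20600 to 24964 CPM in PY and 24419 to 26910 CPM in WT, and the groups overlapped. All entries named for the mitochondrial genome took 33.2 to 39.4% of the counts in PY and 28.9 to 33.3% in WT. Most of this share was the single most abundant entry, with 29.6 to 35.7% in PY and 24.8 to 29.2% in WT. The share therefore does not show the level of the 12 genes.

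Genes of protein synthesis and turnover were lower by less. Of 68 tested ribosomal protein genes 47 were lower and 1 was higher, with a median log2 change of -0.46, and of 35 proteasome genes 26 were lower and 0 higher, with a median of -0.68. rps9 had 939 ± 213 CPM in PY and 1934 ± 137 CPM in WT (-1.04 ± 0.14) and psmb2 had 49.3 ± 15.5 CPM in PY and 101 ± 4.70 CPM in WT (-1.03 ± 0.17). Replication and division genes were lower for 14 of 39 and higher for 2. mcm4, a subunit of the replicative helicase, averaged 8.92 ± 1.59 CPM in PY and 23.2 ± 1.48 CPM in WT (-1.37 ± 0.24). With TGR5-KO 11 replication and division genes were lower and 0 higher, but with CYP7a1-KO 2 were lower and 10 higher. Over all tested genes 8.42% were lower and 11.5% higher with TGR5-KO, and 9.93% lower and 13.3% higher with CYP7a1-KO. Proteasome genes likewise had 14 lower and 0 higher with TGR5-KO, and 0 lower and 6 higher with CYP7a1-KO. The summed proteasome list had medians of 2541 CPM in WT SLC45a2-KO, 2311 CPM in WT TGR5-KO and 1595 CPM in WT CYP7a1-KO. In PY they were 1756, 1844 and 1830 CPM. In the same order, medians of the replication list were 1308, 1620 and 889 CPM in WT and 781, 1070 and 963 CPM in PY. Both lists were thus lowest, among the WT groups, with CYP7a1-KO. Antioxidant genes under the factor Nrf2 were lower for 12 of 27 and higher for 3, where sod1, a superoxide dismutase, averaged 85.5 ± 14.6 CPM in PY and 188 ± 20.03 CPM in WT (-1.13 ± 0.14).

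In skeletal muscle 33 of 61 tested sarcomere genes were lower and 5 higher, with a median log2 change of -0.59. With TGR5-KO, by contrast, 20 were higher and 6 lower, where 11.5% of all tested genes were higher and 8.42% lower. tnni2a.1, a troponin of fast muscle, had 13.4, 8.82, 12.2, 10.2 and 11.7 CPM in the 5 PY libraries, against 50.3, 52.8, 46.3 and 40.1 CPM in the 4 WT libraries, a log2 change of -2.07 ± 0.18. The most abundant members moved less: actc1b, a striated muscle actin, averaged 12677 ± 1787 CPM in PY and 18187 ± 1954 CPM in WT (-0.52 ± 0.12), and pvalb1, a calcium buffer of fast muscle, averaged 17576 ± 2999.7 CPM in PY and 22095 ± 2531 CPM in WT and did not pass the test (-0.33 ± 0.23, edgeR adjusted p = 0.276), although it did in a fit of the 9 libraries alone (adjusted p = 0.0175) and against all 3 WT groups together (-0.48, adjusted p = 0.0389). neb, the giant ruler of the thin filament, had 1 count over the 5 PY libraries against 678 over the 4 WT libraries, a scaled ratio of WT to PY of 760 (exact 95% binomial interval 136 to 30100). With TGR5-KO neb had 562 counts in PY and 620 in WT, and with CYP7a1-KO 454 in PY and 1564 in WT. Of 19 tested genes of muscle atrophy, 6 were higher and 2 lower. foxo1a, a transcription factor of the fasting response, had 118.5, 140.5, 148.5, 172 and 150.1 CPM in PY against 86.6, 82.4, 81.0 and 90.1 CPM in WT, a log2 change of 0.78 ± 0.15, and bnip3, a receptor for removal of mitochondria, averaged 27.95 ± 6.25 CPM in PY and 10.9 ± 3.97 CPM in WT (1.36 ± 0.25). gamt, the enzyme that makes creatine, had 5.31, 3.90, 10.7, 11.9 and 5.09 CPM in PY against 122, 112, 134 and 96.5 CPM in WT, a log2 change of -4.01 ± 0.39, and is not on the muscle lists.

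Among blood genes, hbba1, an adult beta globin, had 459, 289, 173, 317 and 361 CPM in the 5 PY libraries, against 4076, 4609, 4565 and 3561 CPM in the 4 WT libraries. The lowest WT library was far above the highest PY library, with a log2 change of -3.72 ± 0.52, and the adult alpha globin hbaa1 averaged 62.8 ± 19.6 CPM in PY and 775 ± 60.2 CPM in WT (-3.62 ± 0.48). hbbe2, an embryonic beta globin, went the other way with 780.3, 487, 786, 281 and 526 CPM in PY against 205, 249, 275 and 140.0 CPM in WT and a log2 change of 1.397 ± 0.31. klf1, a transcription factor of red cell precursors, averaged 10.2 ± 2.41 CPM in PY and 4.11 ± 0.854 CPM in WT (1.31 ± 0.40), and over the 20 tested red cell genes 5 were higher and 7 lower. The globin genes are near-identical copies, so counts of one copy may include reads of another. krt4, a keratin of the surface epithelium, averaged 32.9 ± 17.5 CPM in PY and 271 ± 102 CPM in WT (-3.03 ± 0.64), and meltf, an iron-binding surface protein first known from melanoma cells, had 17.6, 16.8, 9.21, 12.99 and 12.3 CPM in PY against 394, 374, 304 and 332 CPM in WT, a log2 change of -4.66 ± 0.21. Of 17 pigment cell genes 10 were lower and 2 higher, although slc45a2 was targeted in both groups. tyrp1b, a melanin enzyme, averaged 28.7 ± 2.58 CPM in PY and 88.2 ± 10.02 CPM in WT (-1.62 ± 0.16). Nerve and glia genes were lower for 19 of 37 and higher for 0, where tubb5, a tubulin of neurons, averaged 30.8 ± 5.83 CPM in PY and 140.4 ± 15.04 CPM in WT (-2.19 ± 0.18). elavl4, a neuronal RNA-binding protein, averaged 271 ± 19.5 CPM in PY and 242 ± 7.55 CPM in WT and did not pass the test (0.16 ± 0.13, edgeR adjusted p = 0.33).

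Among the largest decreases outside the lists, gdi2, which recycles Rab proteins of vesicle traffic, had 2.31, 0.615, 0, 0 and 0 CPM in PY against 21.5, 21.2, 33.3 and 8.88 CPM in WT, a log2 change of -5.08 ± 0.73 (-6.73 without PY library 1). CU207281.1, an entry with no further name, had 4 counts over the 5 PY libraries and 568 over the 4 WT libraries (-7.14 ± 0.66, -8.43 without PY library 5 and -3.61 ± 0.74 against the mean of the 3 WT groups). Neither overlapped between the groups. With TGR5-KO gdi2 had no count in PY and 348 in WT, and with CYP7a1-KO 48 in PY and 578 in WT, while CU207281.1 changed by 1.002 ± 0.59 and 1.91 ± 0.71 in those settings.

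On other lists the counts were small or ran both ways. Glycolysis was lower for 7 of 28 tested genes and higher for 1, but for 8 lower and 10 higher against the mean of the 3 WT groups. Genes of the outer skin were lower for 13 of 32 and higher for 8. Autophagy and lysosome genes were higher for 9 of 43 and lower for 6, near the shares over all genes. Genes of bile ducts and liver progenitors were higher for 7 of 20 and lower for 7. Their summed level was 2222 to 3162 CPM in PY and 2848 to 3094 CPM in WT, and the groups overlapped. The gene named next shows the upward side only. anxa4, an annexin of biliary cells, had 403, 610.5, 619, 485 and 441 CPM in the 5 PY libraries, against 71.1, 66.1, 85.8 and 75.6 CPM in the 4 WT libraries, a log2 change of 2.78 ± 0.16 with no overlap. Of 14 heart genes 4 were higher and 4 lower, with a median log2 change of -0.09. The summed heart list was 2425 to 3928 CPM in PY and 1233 to 1716 CPM in WT, without overlap. On the upward side, nppb, a natriuretic peptide of the strained heart, had 19.9, 10.3, 8.71, 10.2 and 18.7 CPM in PY against 0.895, 1.07, 0.417 and 0.378 CPM in WT, a log2 change of 4.26 ± 0.79.

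The same background contrast was made in 2 other settings of the series that share no library with it. With TGR5 also targeted, PY and WT differed in 3085 genes (19.9%), 11.5% of the tested genes higher and 8.42% lower. With CYP7a1 also targeted they differed in 3604 genes (23.2%), 13.3% higher and 9.93% lower. Of the 5531 genes called with slc45a2 alone, 2094 were called in the same direction with TGR5-KO and 61 in the opposite one, which is for the same direction 37.9% of the calls with slc45a2 alone and 67.9% of those with TGR5-KO. With CYP7a1-KO the same-direction overlap was 1747 genes, 31.6% of the calls with slc45a2 alone and 48.5% of those with CYP7a1-KO, and 246 were opposite. A direct test of the difference between the changes called 1040 genes against the TGR5-KO setting (6.7%), 2.76% as more positive with slc45a2 alone and 3.94% as more negative. Against the CYP7a1-KO setting it called 2764 genes (17.8%), 6.98% as more positive and 10.8% as more negative. Among the first, 505 changed in the same direction but by more with slc45a2 alone, 57 in the same direction but by less, and 478 had changes of opposite sign in the 2 settings. Among the second these were 805, 193 and 1766 genes, so that opposite signs were the most frequent class against the CYP7a1-KO setting.

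**Figure D4:**
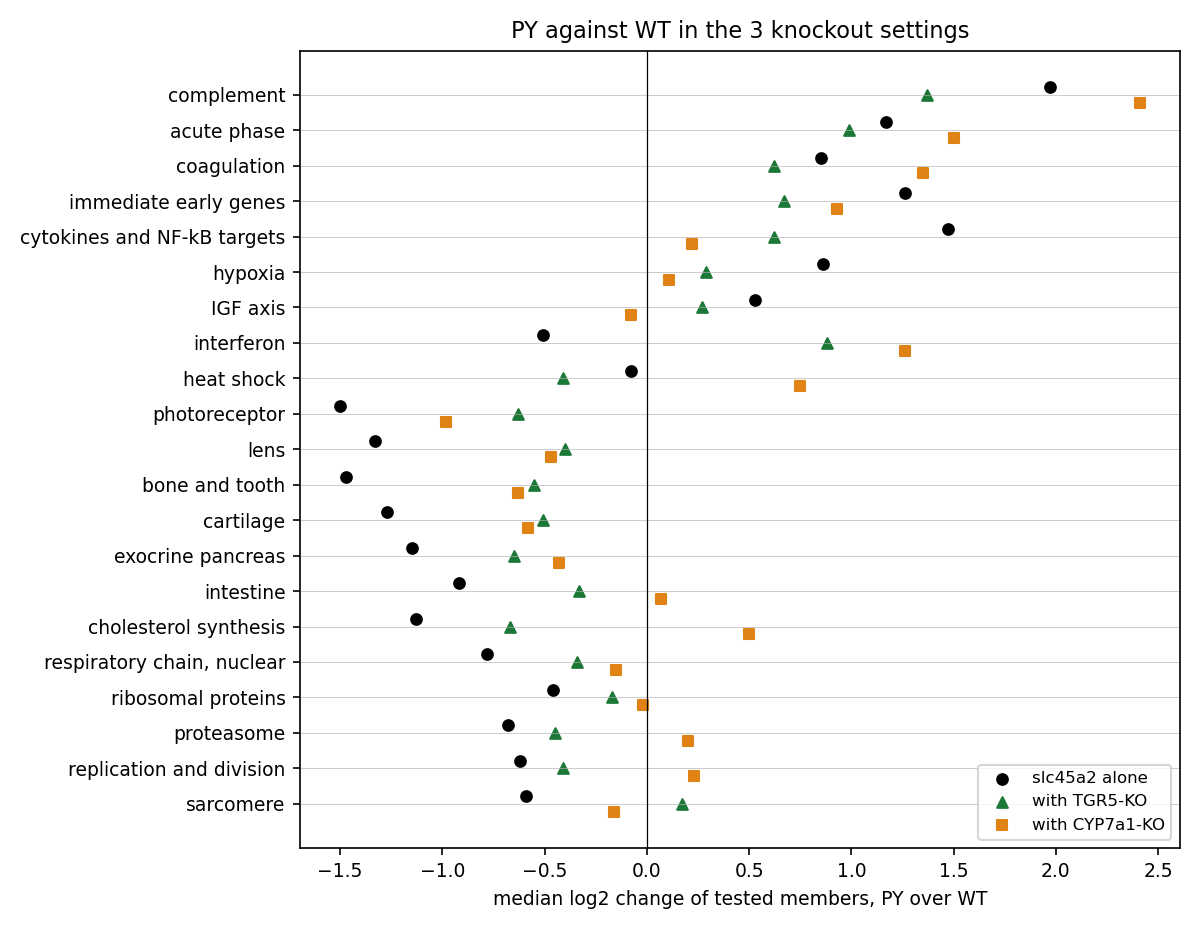
Median log2 change of PY over WT for selected gene lists in the 3 settings, slc45a2 targeted alone (5 PY against 4 WT libraries), with TGR5 and with CYP7a1. The vertical line marks 0; complement is above 1 in each setting, and the interferon list is below 0 with slc45a2 alone, -0.51, and above it in the others, 0.88 and 1.26.

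Complement was higher in PY in each setting, for 16 of 24 genes with TGR5-KO and 19 with CYP7a1-KO. Against the change with TGR5-KO, the change with slc45a2 alone was more positive for 5 complement genes and more negative for 0, and against CYP7a1-KO for 1 and 3. hamp had 8.06 ± 2.83 CPM in PY and 0.381 ± 0.275 CPM in WT with TGR5-KO (edgeR adjusted p = 1.73e-05), and with CYP7a1-KO 294 counts over the 5 PY libraries and none in WT (edgeR adjusted p = 3.56e-08). In the lens, 25 of 45 genes had a more negative change with slc45a2 alone than with TGR5-KO, and 28 than with CYP7a1-KO. Of 78 nuclear respiratory genes 9 and 39 did so. For ribosomal proteins the counts were 2 and 30 of 68, and for sarcomere genes 34 and 20 of 61. With TGR5-KO 20 sarcomere genes were higher in PY and 6 lower, with a median of 0.17. With CYP7a1-KO 7 were higher and 16 lower, with a median of -0.16. cryba4 had log2 changes of -1.33 ± 0.14 with slc45a2 alone, -0.23 ± 0.14 with TGR5-KO and -0.04 ± 0.14 with CYP7a1-KO, and the difference was called against both (edgeR adjusted p = 0.000207 and 6.87e-06). Cholesterol synthesis differed between the settings. With TGR5-KO 9 of 25 genes were lower and 2 higher, with CYP7a1-KO 0 lower and 5 higher, and the difference from the change with slc45a2 alone was called downward for 0 and 13 genes. The summed cholesterol list was 548 to 771 CPM in WT and 526 to 1073 CPM in PY with CYP7a1-KO. The other WT groups held 964 to 1321 CPM (TGR5-KO) and 778 to 1127 CPM (slc45a2 alone). The summed ribosomal list was 81355 to 84469 CPM in WT CYP7a1-KO. It was 94651 to 104164 CPM in WT TGR5-KO and 104186 to 119444 CPM in WT SLC45a2-KO. Differences from the CYP7a1-KO setting thus also depend on its WT libraries. hmgcs1 changed by -1.83 ± 0.53 with slc45a2 alone, -1.68 ± 0.49 with TGR5-KO and 1.65 ± 0.52 with CYP7a1-KO. By contrast ndufs7, at -2.87 ± 0.39, -2.87 ± 0.39 and -2.46 ± 0.38, and gamt, at -4.01 ± 0.39, -3.93 ± 0.38 and -2.95 ± 0.37, were lower in PY in each setting and their differences were not called.

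Each change also depends on the 4 WT SLC45a2-KO libraries, which stood apart from the other 8 WT libraries in some genes. Between WT SLC45a2-KO and the mean of WT TGR5-KO and WT CYP7a1-KO, 783 genes differed (5.04%), 546 higher (3.52%) and 237 lower (1.53%). Interferon-response genes were among them, 17 of 27 tested members higher in WT SLC45a2-KO and 0 lower, with a median of 1.00. Their summed level was 346 to 453 CPM in PY and 351 to 416 CPM in WT, against 131 to 179 CPM in WT TGR5-KO and 169.3 to 212 CPM in WT CYP7a1-KO. In PY against WT with slc45a2 alone, 9 members were lower and 2 higher (median -0.51), while against the mean of all 3 WT groups 3 were lower and 14 higher (median 0.77). That last comparison called 6606 genes (42.6%), 22.2% higher and 20.4% lower. With TGR5-KO and CYP7a1-KO 11 and 17 members were higher and 0 lower in either. isg15, a ubiquitin-like protein that interferon induces, had 18.7, 13.3, 7.46, 12.99 and 26.1 CPM in PY against 19.9, 17.8, 5.42 and 15.7 CPM in WT. It averaged 10.2 ± 4.42 CPM in PY and 0.801 ± 0.675 CPM in WT with TGR5-KO and 15.6 ± 5.16 CPM in PY and 0.566 ± 0.569 CPM in WT with CYP7a1-KO, and the difference of changes was called against both (edgeR adjusted p = 0.00241 and 5.11e-05). ifit8, another interferon-induced gene, changed by -2.20 ± 0.68 against WT SLC45a2-KO and by 2.21 ± 0.75 against all 3 WT groups, a fitted value that is no bound because WT TGR5-KO held no count.

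**Figure D5:**
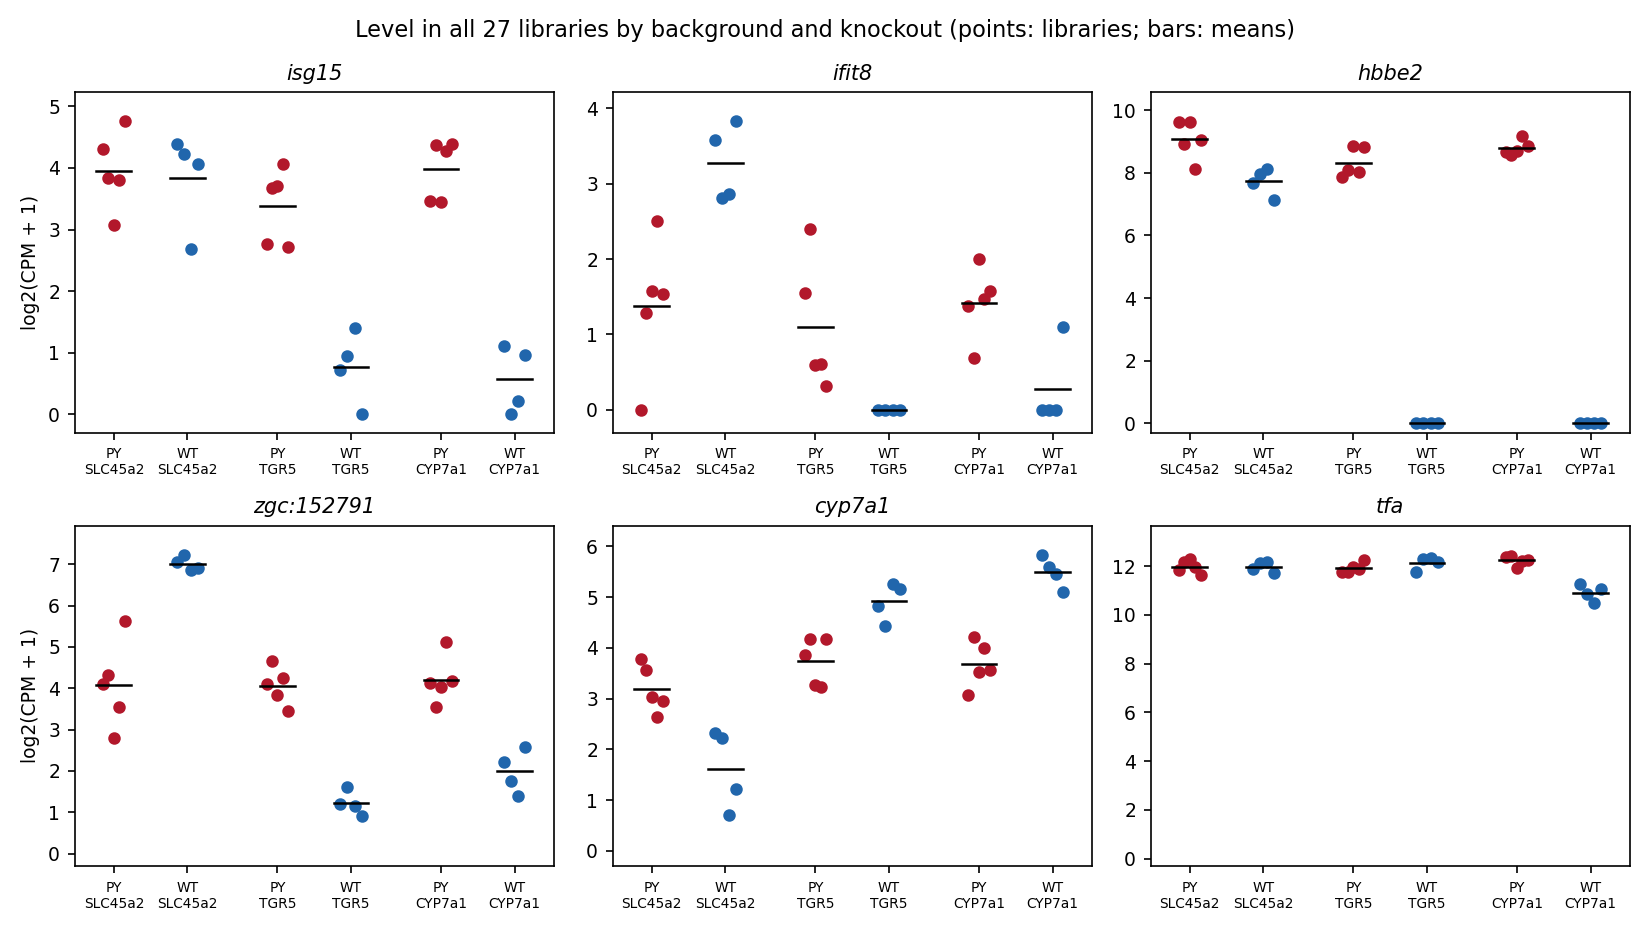
Log2(CPM + 1) in each of the 27 libraries for isg15, ifit8, hbbe2, zgc:152791, cyp7a1 and tfa, with PY (red) left of WT (blue) in each of the 3 settings and bars at the group means. In isg15, ifit8, hbbe2 and zgc:152791 the 4 WT SLC45a2-KO libraries lie above the 8 other WT libraries, and in cyp7a1 below them. The gene tfa, which was not called with slc45a2 alone, is shown beside them. Its WT CYP7a1-KO libraries, with 1443 to 2430 CPM, lie below all other libraries.

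Single genes also depended on the WT libraries. cyp7a1, the first enzyme of the classical bile acid pathway, had 12.7, 10.9, 7.22, 5.25 and 6.78 CPM in the 5 PY libraries, against 4.03, 3.64, 0.625 and 1.32 CPM in the 4 WT libraries, a log2 change of 1.86 ± 0.37 (edgeR adjusted p = 8.66e-05). Its level was 12.9 ± 4.24 CPM in PY and 30.0 ± 7.60 CPM in WT with TGR5-KO, and 12.3 ± 3.998 CPM in PY and 44.7 ± 9.29 CPM in WT with CYP7a1-KO, where the gene itself was targeted. Against the mean of the 3 WT groups the change was -0.77 ± 0.26, in the other direction. hbbe2 had no count in any of the 8 other WT libraries, while all 4 WT SLC45a2-KO libraries held it. zgc:152791, an entry with no further name, had 16.2, 19.1, 5.97, 10.8 and 48.8 CPM in PY against 131, 147.4, 115 and 119.6 CPM in WT, a log2 change of -2.65 ± 0.40 (-3.29 without PY library 5), and changed by 3.57 ± 0.60 and 2.59 ± 0.51 in the TGR5-KO and CYP7a1-KO settings. slc25a4, the mitochondrial exchanger of ADP and ATP, had 0, 1.23, 3.23, 5.25 and 1.70 CPM in PY against 6.49, 38.5, 6.67 and 116 CPM in WT. Its log2 change of -4.25 ± 0.73 was -2.96 without WT library 4 and -1.81 ± 0.67 against the 3 WT groups. For some genes described above the mean of the 3 WT groups gave larger changes: 7.31 ± 0.25 for c4b, 4.24 ± 0.25 for cfb, 4.46 ± 0.11 for cp and 7.44 ± 0.31 for itgb3a, and for tfr1b, ahsg2, hpxa, anpepb, cyp51 and cyp1a it gave smaller ones, 2.19 ± 0.25, -4.67 ± 0.33, -3.23 ± 0.74, -1.10 ± 0.17, -1.27 ± 0.30 and 1.75 ± 0.30.

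The 5 PY libraries also differed among themselves in ways that touched whole groups. PY library 2 was highest in the summed cytokine list, and it was lowest in the summed sarcomere list, 85728, 64413, 76420, 78982 and 82811 CPM in the 5 PY libraries, against 116758, 100184, 110744 and 111237 CPM in the 4 WT libraries, and in the fibrillar matrix list, 5245, 3499, 4224, 4970.3 and 4789 CPM in the 5 PY libraries, against 7846, 7214, 7586 and 7375 CPM in the 4 WT libraries. On both lists every PY library was below every WT library. PY library 1 was the highest PY library in the summed red cell list, 2834, 2216, 2068, 1619.7 and 1812 CPM in the 5 PY libraries, against 6267, 6896, 7003 and 5748 CPM in the 4 WT libraries, and again no PY library reached WT. The summed complement list was lowest in PY library 1, with 5049, 6729.6, 7023, 6726 and 5903 CPM in the 5 PY libraries, against 685, 908, 876 and 791 CPM in the 4 WT libraries. Whether tumour load, the number of larvae or their size differed between these pools is not given by the labels.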

How the data were processed

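Libraries of the 3′ ends of polyadenylated RNA were made from pooled whole larvae, per the labels' protocols. The authors deposited 1 table of 39988 entries with raw counts and CPM for 27 libraries, and the deposited CPM equalled each count scaled by its column total within 0.0005. The submitters' processing notes name the builds danRer10 and GRCz11 without their roles. The aligner and the counter are not stated in them or in the labels, so strand handling is unknown and near-identical copies or antisense partners may share reads. The table holds 6006 entries named XLOC and 118 duplicated symbols.

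Groups came from the labels. Counts of all 27 libraries were fitted with edgeR 4.0.16 in R 4.3.3 with 1 mean per group (TMM factors 0.91 to 1.07, filterByExpr, robust quasi-likelihood test, Benjamini-Hochberg adjustment over 15521 entries, called below 0.05). A ± behind a log2 change is its standard error, taken as the change over the root of F. Differences between settings were interaction contrasts of the same fit. In simulated counts, 67, 67 and 66 genes were changed by 1.5, 2 and 4 fold. The test called 14.9%, 40.3% and 77.3% of them, and 5.38% of its calls were false. Far fewer genes changed there than were called here, so that share may not hold for these data. Genes too low for the fit had an exact permutation test of mean CPM.

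Named genes were the targeted genes and the 15 called genes per direction with the largest change. These had at least 20 CPM in the higher group and no overlap of libraries. Also named were up to 6 called and the 2 most abundant members of each list. Further ones were the largest differences between settings and genes called in opposite directions in different settings. Genes at or near 0 in 1 group, with at least 100 counts in the other, were listed apart, outside this rule. Of the genes outside this rule, cyp26a1, lratb.2, crabp2b, rdh1, rbp4, dio3b, met, hbegfa, errfi1a, sstr2a, igf1, igfbp2b, isg15, srebf2 and mpx were chosen after their values were seen. The comparison, the members and the lists were chosen with earlier results of these data known. Results for some genes are not reported here. Alternatives were DESeq2 1.42.0, voom in limma 3.58.1 with a spread per group, other scalings and filters, thinned counts, fewer libraries, the mean of the 3 WT groups, a replicate block and each of the 9 libraries left out.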

Additional observations from a re-analysis of the deposited data

Results flagged for a closer look

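Single libraries stood far from the others of their group by Dixon's test at the 95% level in 25 of 324 groups of 4 or 5 libraries examined, over the genes named and the summed gene lists. Chance flags about 1 in 20 such groups where values are normally distributed. Where only 1 library of a group held counts, it was flagged whatever their number. This holds for ctgfa and neb in PY and for hamp, cxcl8a and yap1 in WT. PY library 2 was high for cxcl8a at 35.5 CPM, for mmp13a at 89.6 CPM and for the summed cytokine list at 1433.6 CPM. PY library 5 was high for enam at 6.57 CPM and fabp1b.1 at 599 CPM and low for prodha at 241.5 CPM. PY library 4 was high for yap1 at 8.01 CPM and for the summed heart list at 3928.1 CPM, held the single ctgfa count of PY, 0.276 CPM, and was low for the summed photoreceptor list at 862 CPM and the Nrf2 antioxidant list at 1211.8 CPM. PY library 1 was high for gdi2 at 2.31 CPM and low for the summed macrophage list at 285.6 CPM, and PY library 3 held the single neb count of PY, 0.249 CPM. WT library 1 was high for igf1 at 16.8 CPM and errfi1a at 13.2 CPM, and it was low for fga at 109.6 CPM, for cpa5 at 930 CPM, for the summed neutrophil list at 1131.8 CPM and for the fatty acid synthesis list at 1013.2 CPM. It also held the only WT count of cxcl8a and of hamp, 0.224 CPM each. WT library 3 held the only WT counts of yap1, 0.625 CPM, and was high for the summed nuclear respiratory chain list at 15723.1 CPM. WT library 4 was low for met at 19.1 CPM.

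The change between PY and WT differed from that with TGR5-KO for 59 of the genes named and from that with CYP7a1-KO for 70. The values below, for the genes whose settings are compared above, are the log2 change with slc45a2 alone minus that in the other setting, and each passed edgeR's quasi-likelihood test over all genes.

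With the interferon genes, the difference was -8.03 (from the TGR5-KO setting) and -4.75 (from the CYP7a1-KO setting) for ifit8 and -3.50 and -4.69 for isg15. WT TGR5-KO held no count of ifit8 and 3 of the 4 WT CYP7a1-KO libraries held none, so the values of ifit8 are fitted ones and no bound. For the embryonic globin hbbe2 it was -12.18 and -12.60, but the other WT groups held no count of it, so these fitted values are no bound. For zgc:152791 it was -6.22 and -5.24, and for CU207281.1 -8.14 and -9.05. For neb, the giant thin filament protein of muscle, it was -8.50 and -7.09, fitted values that rest on 1 count in PY, for slc25a4 -3.97 and -4.83, and for the lens crystallin cryba4 -1.11 and -1.29. cyp7a1 ran the other way, with 3.07 and 3.72. From the CYP7a1-KO setting alone, hmgcs1 differed by -3.48 and mmp13a by 5.27.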

How the results depend on the processing

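The 5531 calls between PY and WT (2781 higher, 2750 lower) numbered 5807 in DESeq2, 6006 in voom with a spread per group, 6606 against the mean of the 3 WT groups and 5075 with counts thinned to the smallest library, and 4860 to 5382 when 1 of the 9 libraries was left out. The other scalings, filters and fits gave 5098 to 5583, and no count over all genes moved by over 1.5 times. In the edgeR fit of the 9 libraries alone, adjusted p was 0.0404 for mmp13a (0.000318 by default) and 0.0226 for slc25a4 (7.16e-05). For hmgcs1 it was 0.000456 there, against 0.0087 by default. Same-numbered PY and WT libraries did not deviate together (r = -0.000739, -0.000829, 0.0232 and -0.0619 for numbers 1 to 4). The labels give no link between them, and correlations over all genes cannot exclude one that touched few genes. With the replicate block, 5288 genes were called (2663 higher, 2625 lower), and 992 and 2631 for the differences from the TGR5-KO and CYP7a1-KO settings. Among list counts, the lymphocyte members higher, 1 by default, were 2 in DESeq2, 2 in voom and 0 to 2 with 1 library left out, and the heart members higher were 2 with a minimum of 5 CPM in 4 libraries. More genes were called against the mean of the 3 WT groups, 22.2% higher and 20.4% lower, against 17.9% and 17.7% by default. In that comparison the members higher were 12 of 32 for the integrated stress and unfolded protein response and 17 of 32 for clock. They were 11 of 19 for muscle atrophy and 16 of 43 for autophagy and lysosome, and the interferon members lower were 3 of 27. In the direction with fewer calls, the members higher there were 10 of 28 for glycolysis (1 by default) and 8 of 27 for Nrf2 antioxidant genes (3). They were 10 of 61 for sarcomere (5) and 14 of 27 for interferon (2). There cyp7a1 (-0.77), ifit8 (2.215) and zgc:152791 (1.31) turned direction on the log2 scale, and isg15 (3.05), tfa (0.31), mpx (0.74) and pvalb1 (-0.48) gained a call. Calls were also gained by mpx without PY library 1 (0.84), by pvalb1 in the fit of the 9 libraries (-0.32) and by hspa5 without robust estimation (1.03). With 1 library left out, isg15 ranged over -0.17 to 0.28 and tfa over -0.061 to 0.091, neither called in the default fit, and igf1 lost its call without WT library 1 (-0.68, edgeR adjusted p = 0.173). Of 1071 gene values with 1 library left out, 1063 kept direction and call, as did 1293 of 1303 in the other settings. With a floor of 3 counts per library, the least fold of pabpc4 was 22.8. Causes of these shifts were not tested. Depth limits the precision for genes of a few counts.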

Other observations

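Some genes of vitamin A handling, chosen after their values were seen, were lower in PY than in WT. They come from no list, so the share of such genes that was lower is not given. cyp26a1, the enzyme that clears retinoic acid and is itself induced by it, had 3.23, 3.28, 2.49, 3.04 and 2.54 CPM in the 5 PY libraries, against 37.8, 33.4, 45.4 and 32.1 CPM in the 4 WT libraries. No PY library reached WT, and the log2 change was -3.66 ± 0.36 (edgeR adjusted p = 9.56e-11). lratb.2, which esterifies retinol for storage, averaged 2.84 ± 0.696 CPM in PY and 24.2 ± 5.90 CPM in WT (-3.10 ± 0.29), crabp2b, a carrier of retinoic acid in the cell, averaged 4.34 ± 1.80 CPM in PY and 27.1 ± 2.18 CPM in WT (-2.61 ± 0.27), and rdh1, a retinol dehydrogenase, averaged 8.15 ± 3.99 CPM in PY and 37.9 ± 3.35 CPM in WT (-2.23 ± 0.27). WT SLC45a2-KO stood above the other WT groups for cyp26a1 and lratb.2, by 2.17 ± 0.28 and 1.38 ± 0.23 on the log2 scale, and against the mean of the 3 WT groups the changes of these genes were -2.21 ± 0.32 and -2.18 ± 0.26.

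Some signalling genes on none of the described lists, chosen in the same manner, were higher in PY. dio3b, a deiodinase that inactivates thyroid hormone, had 61.5, 69.5, 50.0, 50.0 and 38.4 CPM in the 5 PY libraries, against 7.61, 10.9, 8.13 and 13.8 CPM in the 4 WT libraries, a log2 change of 2.41 ± 0.54. met, the receptor of hepatocyte growth factor, averaged 111 ± 21.5 CPM in PY and 21.98 ± 1.94 CPM in WT (2.33 ± 0.19). hbegfa, a ligand of the epidermal growth factor receptor, averaged 118.6 ± 19.6 CPM in PY and 27.1 ± 6.11 CPM in WT (2.13 ± 0.17), and errfi1a, an inhibitor of that receptor which its signal induces, averaged 88.9 ± 16.0 CPM in PY and 11.6 ± 1.05 CPM in WT (2.93 ± 0.20). sstr2a, a somatostatin receptor, averaged 35.1 ± 14.7 CPM in PY and 3.96 ± 1.31 CPM in WT, a log2 change of 3.14 ± 0.34 that was 2.47 ± 0.22 against the mean of the 3 WT groups. PY and WT libraries did not overlap for dio3b, met, hbegfa, errfi1a and sstr2a.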
